A study of Mus musculus with 24 samples.

Results

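The 84 genes described here encode the proteins of the cytosolic ribosome and their close paralogs, out of 24339 genes measured in mouse liver. They were chosen by name alone, as symbols of the form Rpl or Rps followed by a number, together with Rplp0, Rplp1, Rplp2 and Rpsa, with names of processed copies left out. By that rule 77 are core ribosomal proteins, 46 of the large and 31 of the small subunit, and 7 are paralogs of a core gene (Rpl3l, Rpl7l1, Rpl10l, Rpl22l1, Rpl39l, Rps4l and Rps27l). Ribosomal components such as Fau and Gnb2l1 (RACK1) fall outside the name rule and are described separately.

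Polyadenylated RNA of whole liver from C57BL/6 mice was sequenced in 24 libraries, 3 in each of 8 groups. In wild type mice the groups were corn oil and TCPOBOP, an agonist of the mouse constitutive androstane receptor (CAR), each at postnatal day 5 and day 60. In hCAR-TG mice, which carry a human CAR knock-in, they were corn oil and CITCO, an agonist of human CAR, at the same ages. Receptor and ligand therefore always differed together, and the effect of one cannot be told apart from that of the other. The labels gave no dose, route or interval after dosing, and did not say whether replicates were separate animals, so the spread between replicates may be technical.

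Ribosomal proteins assemble with ribosomal RNA into the small subunit, which reads the mRNA, and the large subunit, which joins the amino acids. Their mRNAs are among the most abundant in a cell. They begin with a cytosine followed by an uninterrupted run of pyrimidines, the 5′ terminal oligopyrimidine (TOP) tract, through which the growth kinase mTORC1 controls their translation. In liver, CAR is a regulator of drug metabolism whose activation in adult mice also leads to liver growth.

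A TOP tract was found at the annotated start of some members, and not of others. RefSeq promoters (GRCm38.p6) were matched for 63 of the 84 genes. Here a tract is a C followed by C or T only, at least 8 letters in all, beginning within 10 bases of the annotated start on the gene's own strand. Of the 75 promoters of these genes, 28.0% held one, against 7.25% of 32851 promoters of all genes. The windows run from 10 bases before the annotated start to 20 bases from it, read 5′ to 3′ on the coding strand, and the capitals mark the tract. The first 5 belong to the S6 kinase substrate Rps6, the stalk protein gene Rplp2, the strongly age-dependent Rps12, the X-linked Rpl39 and the paralog Rpl22l1.
Rps6, chr4:86857348-86857377, minus strand: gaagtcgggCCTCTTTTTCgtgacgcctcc
Rplp2, chr7:141447641-141447670, plus strand: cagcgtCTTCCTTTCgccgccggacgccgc
Rps12, chr10:23787190-23787219, minus strand: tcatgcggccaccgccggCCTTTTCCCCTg
Rpl39, chrX:37085203-37085232, minus strand: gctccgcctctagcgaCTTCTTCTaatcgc
Rpl22l1, chr3:28805498-28805527, plus strand: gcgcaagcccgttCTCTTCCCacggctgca
The other 3 windows hold no such tract at the annotated start and are shown because their genes either led a response (Rplp0 and Rpl12) or moved apart from the other members (Rps27l, the first of 2 promoters).
Rplp0, chr5:115559457-115559486, plus strand: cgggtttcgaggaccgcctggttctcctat
Rpl12, chr2:32961702-32961731, plus strand: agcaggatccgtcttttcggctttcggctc
Rps27l, chr9:66946076-66946105, plus strand: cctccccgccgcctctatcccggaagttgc
Within the whole 300 bases, read on both strands, the letters CCGGAA were present in 48.0% of member promoters and 14.9% of all, CACGTG in 10.7% and 7.15%, and TATAAA in 9.33% and 13.6%. A tract starting a few bases away from the annotated position is missed by this rule, and no site was tested for function.

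Members were expressed at very different levels. Levels are given in FPKM, in which the fragments of a gene are scaled by transcript length and by the library's total, so that they can be compared between genes. Over the 24 libraries, 65 members averaged 100 FPKM or more, 15 lay between 10 and 100, 1 between 1 and 10, and 3 below 1. The median of the core members was 189 FPKM, against 5.73 FPKM for all tested genes. The highest mean levels were those of Rplp1 (628 FPKM), Rps29 (478 FPKM), Rpl32 (470.1 FPKM), Rpl41 (449.5 FPKM) and Rps15 (397 FPKM). Among the lowest were Rps27 at 1.27 FPKM and Rps15a at 13.6 FPKM. The paralogs Rpl3l, Rpl10l and Rpl39l stayed between 0 and 0.149 FPKM in every library and were not tested, which left 81 tested members.

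Levels of members have to be read with the sequence they share with other genes. Of the 50-base stretches of a protein-coding transcript chosen for each member, a median of 44.3% (80 members) also occurred in transcripts of other genes. The transcript chosen was the longest of those the annotation marks as principal, or of all where none was so marked. The median share was 30.0% for the 10 members under 50 FPKM and 48.5% for the 70 at 50 FPKM or more. The chosen transcripts were longer in the low group (median 1591 bases against 857.5), and a longer transcript can lower the percentage. Whether low members share more is thus not settled by these shares. For Rps15a the share was 6.28% of a chosen transcript of 5179 bases, spread over 39 other genes. For Rps27 it was 98.6%, spread over 9 other genes. The deposited FPKM interval of Rps27 reached 52.8% to either side of its value, so its level is uncertain. Over the 81 tested members that reach had a median of 3.34%, and 64 of them were under 5%. Rpl26 (16.4%) and Rpl30 (15.8%) were measured less closely than most.

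Together the 84 genes held between 2.61% and 4.85% of all FPKM in a library. In wild type livers their summed level was 17418 ± 533 FPKM at day 5 with corn oil (mean ± SD, n = 3 in this and every other group) and 23057 ± 794 FPKM with TCPOBOP. At day 60 it was 12248 ± 567 FPKM with corn oil and 17797 ± 719 FPKM with TCPOBOP. In hCAR-TG livers the sums were 17930 ± 2717 FPKM (corn oil) and 17665 ± 877 FPKM (CITCO) at day 5, and 13056 ± 473 FPKM and 14071 ± 263 FPKM at day 60. Both TCPOBOP groups were clear of their controls, and both groups of adult controls lay below both groups of newborn controls.

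**Figure D1:**
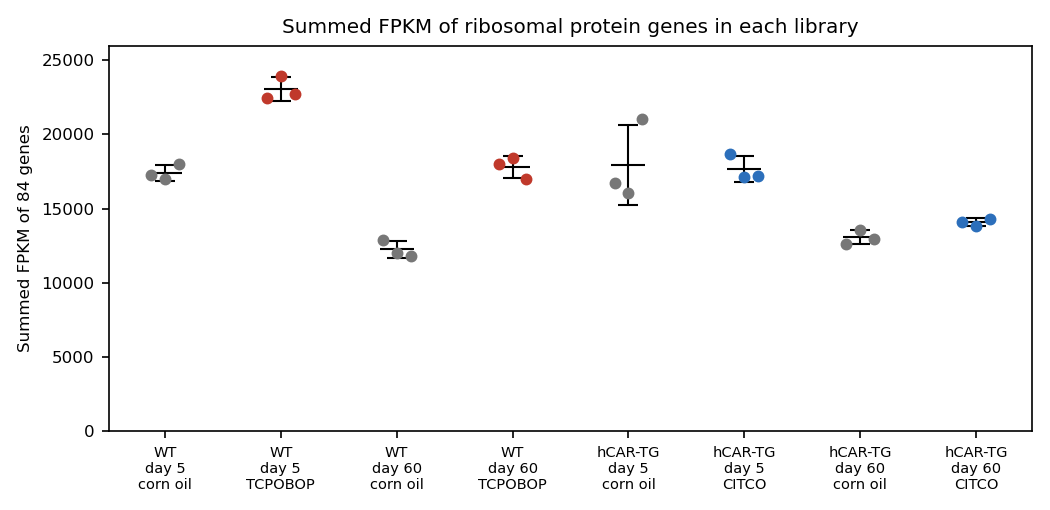
Summed FPKM of the 84 genes (vertical axis, from 0) in each of the 24 libraries (points), by group, with the mean and SD of 3 libraries (black bars); grey is corn oil, red TCPOBOP and blue CITCO. TCPOBOP libraries lie above their corn oil controls at both ages, and 1 newborn hCAR-TG corn oil library, at 21045 FPKM, lies far above the other 2 of its group.

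One library stood apart. In the newborn hCAR-TG corn oil group, replicate 3 had a member sum of 21045 FPKM, against 16696 and 16048 FPKM in replicates 1 and 2. Its deviation from its own group over all tested genes was 0.260 (root mean square, log2), against 0.0976 to 0.180 in the other 23 libraries. Counts for the comparisons that rest on this group are given with and without it. The numbers that end the read file names, whose meaning the labels do not give, also differed between groups. Newborn wild type controls all ended in 3 and newborn TCPOBOP libraries all in 4, so for that comparison the number and the treatment cannot be told apart. The number likewise cannot be told apart from age in hCAR-TG controls or from genotype in newborn controls. This also affects some of the differences between comparisons described below. Hepatocyte markers (Alb, Apoa1, Ttr, Serpina1a and Fgb) summed to between 21542 and 76117 FPKM in every library, so the labelled tissue carried its defining transcripts. In whole liver, fewer cells of a type and less RNA per cell cannot be told apart.

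Nearly the whole set rose with TCPOBOP in newborn wild type livers. Of 81 tested members, 74 rose, where 24.6% of 12282 tested genes did (limma, adjusted p under 0.05, termed called below), and all 81 changes were above 0. The median log2 change was 0.37, against 0.04 for all tested genes, and groups did not overlap for 77 members, against 30.0% of all genes. Large (43 of 46) and small (29 of 31) subunit genes rose by medians of 0.39 and 0.37. The rise was thus broad and shallow: only 13 members passed 0.5 on the log2 scale.

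The acidic stalk of the large subunit, which recruits the elongation factors, led the response, together with the less closely measured Rpl26 (0.66 ± 0.24), whose groups overlapped. Rplp0, the stalk base, was at 333, 310.0 and 330.5 FPKM with corn oil and at 498, 548 and 493 FPKM with TCPOBOP. Every treated library lay above every control, and the log2 change was 0.66 ± 0.09 (± SE, limma adjusted p = 6.18e-06). Rplp1 was at 576, 532 and 637 FPKM in controls and 905, 931 and 903 FPKM with TCPOBOP (0.65 ± 0.11). Its partner Rplp2 rose by 0.53 ± 0.10. Next in size were the large subunit genes Rpl32 (0.57 ± 0.10), Rpl36 (0.57 ± 0.11) and Rpl38 (0.57 ± 0.09).

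Other members with known roles also rose. Rps6, the phosphorylation target of S6 kinase, was at 152, 153 and 156 FPKM in controls and 196, 199 and 201 FPKM with TCPOBOP (0.37 ± 0.06, limma adjusted p = 0.000106). Rpl5 (0.23 ± 0.06) and Rpl11 (0.23 ± 0.06), which form the 5S RNA particle and can bind the p53 inhibitor MDM2, were among the smaller changes. Both differences exceeded the spread between replicates. Rps19, a gene mutated in Diamond-Blackfan anaemia, rose by 0.32 ± 0.08, and Rpsa, which is also known as a laminin receptor, by 0.30 ± 0.09.

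The 7 members not called were Rpl35a, Rpl9, Rps27a, Rps4l, Rpl22l1, Rps27 and Rpl30. Rpl35a was at 223, 219.7 and 222 FPKM with corn oil and 238, 228 and 238 FPKM with TCPOBOP, a change of 0.08 ± 0.07 (limma adjusted p = 0.393). The changes of Rpl9 (0.09 ± 0.08) and of Rps27a (0.18 ± 0.07), made as a fusion with ubiquitin, were likewise small. Rpl30 changed by 0.47 ± 0.19 (limma adjusted p = 0.0593), with a wider error. Rescaling each library by the median of ratios to its peers left 66 called members, where 20.3% of all genes rose. The hepatocyte marker sum moved the other way, from 74981 to 76117 FPKM in controls to 55576 to 59496 FPKM with TCPOBOP, and 4 of 8 Kupffer cell markers and 5 of 10 proliferation markers rose. Their part in the result was not tested.

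In adult wild type livers 75 of 81 members rose with TCPOBOP, where 31.4% of all tested genes rose, and 80 of the 81 changes were above 0. The median log2 change was 0.53, against 0.06 for all tested genes. The summed level rose 1.45-fold, and 1.36-fold after rescaling, without overlap. Groups were apart for 78 members, against 37.7% of all genes. After rescaling 71 members rose, where 26.0% of all genes did, and with the file number as a factor 77 rose, with a median of 0.57. The hepatocyte marker sum went from 38420 to 47202 FPKM in controls to 21542 to 23838 FPKM with TCPOBOP (4 of 5 markers fell), and the proliferation sum from 4.14 to 5.35 FPKM to 132 to 179.5 FPKM (10 of 10 rose). Their part in the result was not tested.

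Rpl12, a neighbour of the stalk on the large subunit, had the largest rise. It was at 185, 152 and 145 FPKM in controls and 287, 302 and 266 FPKM with TCPOBOP (0.83 ± 0.09, limma adjusted p = 2.29e-07). The stalk genes Rplp1 (0.79 ± 0.11), Rplp0 (0.71 ± 0.09) and Rplp2 (0.63 ± 0.10) rose too. All 5 listed genes of the nascent chain exit rose (median 0.71), among them Rpl39 (0.79 ± 0.11) and Rpl26 (0.77 ± 0.24). Rpl26 was at 21.6, 22.7 and 16.5 FPKM in controls and 31.6, 48.5 and 27.8 FPKM with TCPOBOP. Its size rests in part on the library at 48.5 FPKM. Rpl29 rose by 0.75 ± 0.07.

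Other members by role followed. The 4 X-linked members Rpl10, Rps4x, Rpl36a and Rpl39 all rose, Rpl36a from 108, 97.6 and 98.8 FPKM to 173, 168 and 172 FPKM (0.75 ± 0.07). Rps6 rose by 0.33 ± 0.06, Rpl5 by 0.46 ± 0.06, Rpl11 by 0.48 ± 0.06 and Rps27a by 0.38 ± 0.07. In the list of the small subunit's head and mRNA path, 4 of 6 rose with a median of 0.27. Rpsa (0.22 ± 0.09, limma adjusted p = 0.0589) and Rps2 (0.24 ± 0.11, limma adjusted p = 0.0625) were not called there, although their groups did not overlap. Rpl35a (0.13 ± 0.07) and Rpl9 (0.13 ± 0.08) were small again, and Rps27 and Rps4l were not called.

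Both ages had 72 members higher with TCPOBOP, compared with 2076 of 12282 tested genes, and the 2 comparisons share no libraries. The day 60 change minus the day 5 change was called for 10 of 81 members, all positive, near the background of 13.7%. The median was 0.14, against 0.03 for all tested genes. The largest were Rpl22l1 (0.48 ± 0.14, limma adjusted p = 0.0166), a paralog of Rpl22, then Rpl12 (0.39 ± 0.13) and Rpl29 (0.38 ± 0.10). After rescaling 8 were called, and Rpl12 was not (limma adjusted p = 0.0610). Rpl22l1 was at 63.7, 69.9 and 74.3 FPKM in newborn controls and 84.1, 74.0 and 89.0 FPKM with TCPOBOP, which overlap. In adults it was at 58.8, 45.4 and 42.5 FPKM and then 80.1, 82.9 and 79.6 FPKM, well apart. The count was 6 without TCPOBOP replicate 2 of day 5, and likewise 6 without TCPOBOP replicate 2 of day 60. It was 36 with array weights and 5 without the 3 newborn libraries that held over 100 FPKM of pancreas transcripts. Shares of all genes called in these fits are not given here.

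In the deposited FPKM, adult TCPOBOP livers held these transcripts close to the levels of newborn controls. The ratio of the adult TCPOBOP mean to the newborn corn oil mean had a median of 1.01 over 81 members (quartiles 0.944 and 1.09), whereas that of adult to newborn controls was 0.703 (quartiles 0.643 and 0.765). The ratio is of the deposited FPKM and carries no test. After rescaling, the summed level was 18015 to 18687 FPKM in adult TCPOBOP libraries. In newborn wild type controls it was then 15942 to 16427 FPKM, without overlap, so the match does not hold after rescaling.

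**Figure D2:**
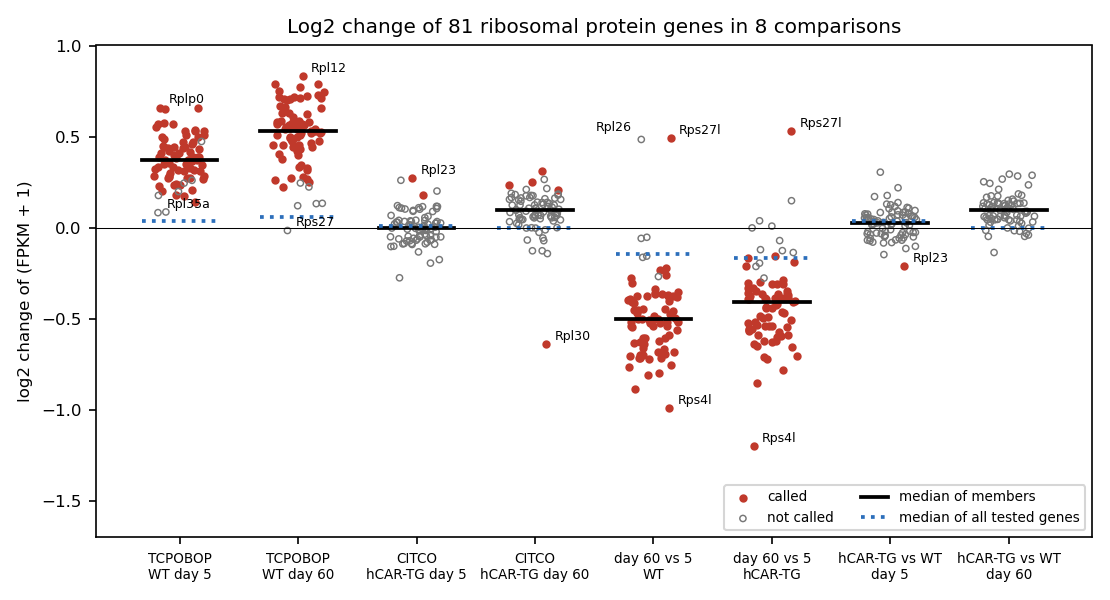
Log2 change of (FPKM + 1) for each of the 81 tested members (points, red where called and open where not) in 8 comparisons, with the median of the members (black line) and of all tested genes (dotted line). With TCPOBOP nearly all points lie above 0 (medians 0.37 and 0.53), with age nearly all lie below 0 (medians -0.50 and -0.41), and with CITCO and between genotypes they lie near 0.

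CITCO did not give a like shift in newborn hCAR-TG livers. Of 81 members, 2 rose, where 8.27% of all tested genes did, and 0 fell, where 8.82% did (limma; 1 member was lower and 2 higher at an unadjusted p under 0.05). The median log2 change was -0.00, against 0.01 for all tested genes. Rpl23, of the large subunit, was at 139.8, 131 and 126 FPKM with corn oil and 168, 158 and 154 FPKM with CITCO (0.27 ± 0.05, limma adjusted p = 0.00198), without overlap. Rps23, at the decoding centre, was at 126, 129 and 132 FPKM and 161, 141 and 136 FPKM (0.18 ± 0.06, limma adjusted p = 0.0402).

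The stalk genes moved little here. Rplp0 was at 316, 319 and 439 FPKM with corn oil, and at 358, 349.8 and 342 FPKM with CITCO. Replicate 3 alone of the controls exceeded the treated libraries. The count was 1 without corn oil replicate 1 or 2 or CITCO replicate 2. Without corn oil replicate 3, 6 members rose, among them Rpl13a, Rpl23, Rpl24, Rpl36 and Rps23, and the median was 0.10. The summed level with CITCO was then 1.08-fold that of the controls, without overlap, and 1.07-fold after rescaling. With all libraries it was 0.985-fold, with overlap. With the file number as a factor, where replicate 3 is the only control that shares its number with the CITCO libraries, 40 fell and 1 rose, so the direction of this comparison rests on that library.

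In adult hCAR-TG livers CITCO changed few members. Of 81, 4 rose, where 4.40% of all tested genes did, and 1 fell, where 3.97% did. The median log2 change was 0.10, against -0.00 for all tested genes, and 68 of 81 changes were above 0. Groups did not overlap in the higher direction for 36 members, against 15.9% of all genes, and the summed level rose 1.08-fold without overlap. The shift was therefore small and mostly below the call. The proliferation marker sum went from 3.58 to 4.26 FPKM in controls to 8.28 to 11.1 FPKM with CITCO (3 of 10 markers rose), and the hepatocyte sum from 43670 to 50943 FPKM to 36883 to 42253 FPKM (2 of 5 fell). Their part in the result was not tested.

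Rpl35a, which was not called with TCPOBOP at either age, was at 143, 165 and 152 FPKM in controls and 184, 174 and 188 FPKM with CITCO (0.25 ± 0.07, limma adjusted p = 0.0305). Rps27l rose by 0.23 ± 0.07 and Rpl7 by 0.21 ± 0.06. Rpl30 alone fell, from 21.6, 12.5 and 17.5 FPKM to 10.4, 9.04 and 12 FPKM (-0.64 ± 0.19, limma adjusted p = 0.0419). Its values scatter widely in most groups. Leaving out hCAR-TG corn oil replicate 1 or CITCO replicate 1 ended all 5 calls, leaving out corn oil replicate 3 left 1, and leaving out CITCO replicate 2 or 3 left 2. With the file number as a factor 0 were called (limma; 13 had an unadjusted p under 0.05 without that factor).

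The day 60 minus day 5 change with CITCO was called for 4 members, 3 higher (background 5.37%) and 1 lower (background 4.62%). Those higher included Rpl35a (0.42 ± 0.10, limma adjusted p = 0.00963) and Rpl7 (0.30 ± 0.09), and the lower one was Rpl30 (-0.90 ± 0.27). The count was 1 without the outlying newborn control, without CITCO replicate 3 of day 5, or without corn oil replicate 1 or 3 or CITCO replicate 1 or 2 of day 60. It was 2 without CITCO replicate 2 of day 5 or replicate 3 of day 60.

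The 2 receptor and ligand pairs differed at both ages. Taking the CITCO change minus the TCPOBOP change, 54 members were lower at day 5 (background 22.2%) and 62 at day 60 (background 24.1%), while 1 and 2 of the 81 differences were above 0. The medians were -0.38 and -0.41, against -0.05 and -0.07 for all tested genes. At day 5 the stalk led: Rplp0 (-0.67 ± 0.13, limma adjusted p = 0.000457), Rplp1 (-0.66 ± 0.15) and Rplp2 (-0.59 ± 0.13). At day 60 Rpl30 (-1.35 ± 0.27), Rpl22l1 (-0.79 ± 0.14) and Rpl36a (-0.75 ± 0.09) were largest. Without the outlying newborn library 40 members were called at day 5, and after rescaling 38 were called at day 60 (background 18.4%).

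**Figure D3:**
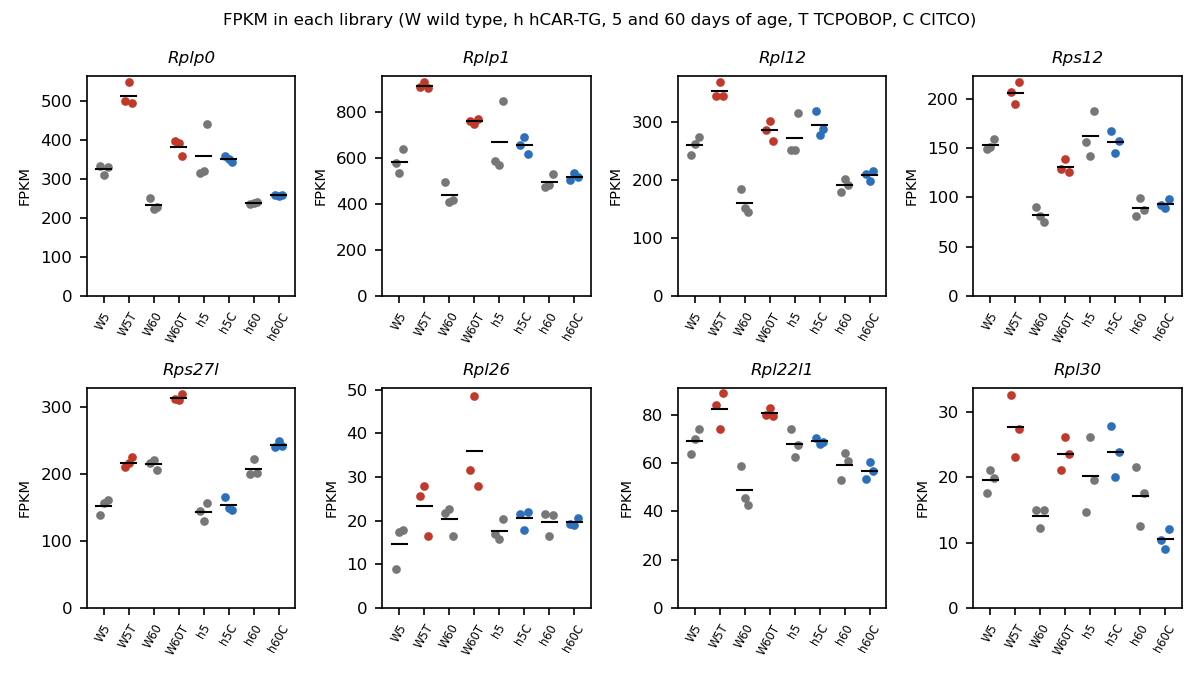
FPKM of 8 members in each of the 24 libraries (points) with the mean of each group of 3 (line), each panel from 0 on its own scale; W5 and W60 are wild type corn oil, T marks TCPOBOP, h5 and h60 are hCAR-TG corn oil and C marks CITCO. Rplp0, Rplp1, Rpl12 and Rps12 fall with age and rise with TCPOBOP, Rps27l is higher at day 60 and rises with TCPOBOP, and Rpl26 and Rpl30 scatter widely.

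In the deposited FPKM the set fell between day 5 and day 60 in control livers. In wild type mice 74 of 81 members were lower, where 44.9% of all tested genes were, and 1 was higher, where 25.2% were. The median log2 change was -0.50, against -0.14 for all tested genes. In hCAR-TG mice 69 were lower (background 47.3%) and 1 higher (background 24.3%), with a median of -0.41 against -0.17. The summed level fell to 0.703 of its day 5 value in wild type and 0.728 in hCAR-TG mice. After rescaling these ratios were 0.833 and 0.883. Rescaling moved the median of all tested genes to 0.06 in both genotypes and the members to -0.26 and -0.13. It left 53 lower and 3 higher in wild type (backgrounds 32.8% and 39.5%) and 35 lower and 4 higher in hCAR-TG mice (backgrounds 33.7% and 39.6%). Without the outlying library 64 were lower and 2 higher in hCAR-TG mice, with a median of -0.34, and the summed level fell to 0.797 of its day 5 value. With that library left out and values rescaled as well, 20 were lower and 11 higher, and the summed level was 0.973 of its day 5 value. The share of all genes called in that setting is not given here. Whether the hCAR-TG set fell, and how far, thus depends on both choices.

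Most of the largest falls were of small subunit genes. Rps12 was at 149, 151 and 159 FPKM in newborn and 90.5, 81.5 and 75.5 FPKM in adult wild type controls (-0.89 ± 0.09, limma adjusted p = 2.69e-08). In hCAR-TG controls it went from 157, 143 and 187 FPKM to 81, 99.2 and 87.4 FPKM (-0.85 ± 0.09, and -0.74 without the outlying library). Neither pair of groups overlapped. Rps20 (-0.81 ± 0.07), Rps15a (-0.80 ± 0.09) and Rpl32 (-0.77 ± 0.10) followed in wild type mice. Rps28 (-0.78 ± 0.10), Rps19 (-0.72 ± 0.08) and Rps4x (-0.71 ± 0.09) followed in hCAR-TG mice. Rps4l, an X-linked gene's paralog, fell most in both, by 0.99 and 1.20 on the log2 scale, but from a level of only 22.3 to 32.3 FPKM in newborns.

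Rps27l was the member that rose with age. It encodes a close relative of Rps27 known as a target of p53. In wild type controls it was at 139, 157 and 161 FPKM at day 5 and 216, 221 and 206 FPKM at day 60 (0.49 ± 0.07, limma adjusted p = 2.23e-06). In hCAR-TG controls it was at 145, 130.0 and 156 FPKM and then 199, 221 and 201 FPKM (0.53 ± 0.07). Every adult library lay above every newborn library. TCPOBOP raised it further, by 0.51 ± 0.07 at day 5 and 0.55 ± 0.07 at day 60, to 312, 309.9 and 319 FPKM. Rpl10, Rpl27a, Rps2, Rpl7l1, Rpl26 and Rps27 were not called in either genotype. Rpl7l1, whose protein acts in ribosome assembly, was called higher after rescaling in both genotypes (0.17 and 0.27).

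Markers of most cell types fell over the same interval. In wild type and hCAR-TG controls respectively, 11 and 12 of 12 tested erythroid markers and 9 and 9 of 9 neutrophil markers fell. All 10 proliferation markers fell in both. The erythroid sum was 5819 to 17272 FPKM in newborn controls and 1385 to 2455 FPKM in adult controls, and the proliferation sum 88.9 to 153 FPKM and 3.58 to 5.35 FPKM. In wild type and in hCAR-TG controls alike, 8 of 8 Kupffer cell, 7 of 7 stellate and 6 of 7 sinusoidal endothelial markers fell, as did 3 of 5 hepatocyte markers. The hepatocyte sum was 67322 to 76117 FPKM in newborn controls and 38420 to 50943 FPKM in adult controls. The part of any of these cells in the fall was not tested.

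Few members were called between genotypes in control livers. At day 5, 1 member was lower in hCAR-TG mice (Rpl23, -0.21 ± 0.05, limma adjusted p = 0.0163, background 2.27%) and 0 were higher (limma, background 8.29%; 2 were lower and 0 higher at an unadjusted p under 0.05). Rpl23 was at 155, 155 and 149 FPKM in wild type and 139.8, 131 and 126 FPKM in hCAR-TG controls. Without the outlying library 3 were lower (Rpl22, Rpl23 and Rpl37a), and with that library left out and values rescaled 12 members were called. The day 5 call was lost without wild type replicate 1 or 2 or hCAR-TG replicate 2, and 2 were called without hCAR-TG replicate 1. At day 60 limma called 0 (background 3.05% higher and 1.85% lower). The median log2 change was 0.10, against -0.00 for all tested genes, and 71 of 81 changes were above 0. This median is about as large as that with CITCO in adults. The summed level was 1.07-fold that of wild type, with overlap. There 10 had an unadjusted p under 0.05, the lowest adjusted p was 0.0785, and 22 had non-overlapping groups, higher in hCAR-TG mice, against 13.0% of all genes. Without wild type replicate 1 of day 60, 3 were higher. Array weights, which weigh libraries by their scatter, called 20 lower at day 5 and 22 higher at day 60. Neither for array weights nor for fits with libraries left out is the share of all genes called given here. The age change did not pass limma's test for a difference between genotypes in any member (background 2.10% higher and 4.84% lower; 5 had an unadjusted p under 0.05). Leaving out the outlying library gave 6 members whose fall was smaller in hCAR-TG mice, and leaving out wild type replicate 3 of day 5, wild type replicate 1 of day 60 or hCAR-TG replicate 1 of day 5 gave 1.

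Most members followed one profile across libraries. As a description over 24 libraries of 8 groups, 61 of 81 members had a Pearson correlation of at least 0.9 with the median of the other members, with a median of 0.945. Members below 0.5 were Rps27l (-0.22), Rpl26 (0.17) and Rps27 (0.29), the last being uncertain in level. Rpl26 was also less closely measured than most, and 61.0% of its 50-base stretches occurred in transcripts of 12 other genes. Genes outside the set with the most alike profile were the initiation factor gene Eif3h (0.97), the processed copy Rplp2-ps1 (0.96), Atp5g2 of the ATP synthase (0.96), Dhps, which makes hypusine on an initiation factor (0.96), and Timm17b of mitochondrial import (0.96). Gnb2l1 (0.96), Gm15772, the mitochondrial ribosomal gene Mrpl52 and Rpl14-ps1 were also among the first 10. Processed copies share sequence with their parent genes, so reads may have been split between them.

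Small and large subunit genes kept close to one ratio. The summed FPKM of small over large core members was 0.815 ± 0.012 and 0.781 ± 0.011 in newborn wild type livers without and with TCPOBOP, and 0.798 ± 0.008 and 0.758 ± 0.009 in adults. Ranges of 3 libraries did not overlap in either case. In hCAR-TG livers it was 0.816 ± 0.007 and 0.797 ± 0.009 at day 5, without overlap, and 0.787 ± 0.005 and 0.784 ± 0.003 at day 60, where ranges overlapped.

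Members with and without a tract had medians that lay close together. The 21 members with one had a median log2 change of 0.39 with TCPOBOP at day 5 and 0.54 at day 60, and the 39 tested members with a promoter but no tract 0.37 and 0.48. With age the medians were -0.52 and -0.45 in wild type and -0.48 and -0.36 in hCAR-TG mice. No difference between them was tested.

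Other genes of translation were counted in the same way, to be read against the 24.6% (day 5) and 31.4% (day 60) of all tested genes that rose with TCPOBOP. Of 6 elongation factor genes, 5 rose with TCPOBOP at each age (medians 0.33 and 0.27), among them Eef1a1 (0.40 ± 0.07 at day 5), which delivers aminoacyl-tRNA. Initiation factor genes rose in 19 of 39 cases at day 5 and 21 at day 60, with 2 lower at each age (medians 0.24 and 0.27). Eif6, which keeps subunits apart until the large one is mature, rose by 0.42 ± 0.07 and 0.79 ± 0.07. Among 15 tested ribosomal and TOP genes outside the name rule, 5 rose at day 5 and 6 at day 60. Gnb2l1, the small subunit scaffold, rose by 0.47 ± 0.09 and 0.62 ± 0.09.

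Of 61 genes of ribosome assembly and RNA polymerase I, 16 rose at day 5, and 25 rose and 1 fell at day 60 (medians 0.12 and 0.16), with the day 5 count close to the background share. Nhp2, of the box H/ACA particle that modifies ribosomal RNA, rose by 0.96 ± 0.10 and 1.30 ± 0.10, and Mrto4 by 0.72 ± 0.08 and 0.75 ± 0.08. Mitochondrial ribosomal protein genes rose in 38 and 37 of 77 cases and fell in 4 and 5 (median 0.19 at both ages). Of 18 genes of growth control, 2 rose at day 5, and 6 rose and 1 fell at day 60. Myc, a transcription factor that drives ribosome synthesis, rose by 0.83 ± 0.29 and 2.28 ± 0.29.

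With age the lists differed in direction. In wild type controls 4 of 6 elongation factor genes and 10 of 15 outside ribosomal and TOP genes fell (medians -0.34 and -0.37). Initiation factor genes (5 higher, 4 lower, median 0.04), assembly genes (11 higher, 18 lower, median -0.02) and mitochondrial ribosomal genes (20 higher, 21 lower, median 0.01) moved both ways. In hCAR-TG controls 4 of 6 elongation factor genes fell, and of the 15 outside genes 1 rose and 10 fell. There 5 initiation factor genes rose and 12 fell, 6 assembly genes rose and 28 fell, and 20 mitochondrial ribosomal genes rose and 17 fell. Of all tested genes 25.2% rose and 44.9% fell in wild type controls, and 24.3% rose and 47.3% fell in hCAR-TG controls. The share of assembly genes that fell in hCAR-TG controls was thus near the background. So was the share of mitochondrial ribosomal genes that rose in either genotype. With CITCO at day 5, 2 initiation factor genes rose and 2 fell, 6 assembly genes rose and 1 fell, and 2 mitochondrial ribosomal genes rose and 2 fell. Of all tested genes 8.27% rose and 8.82% fell there, so for lists of the sizes given above these counts were near or below the background.

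**Figure D4:**
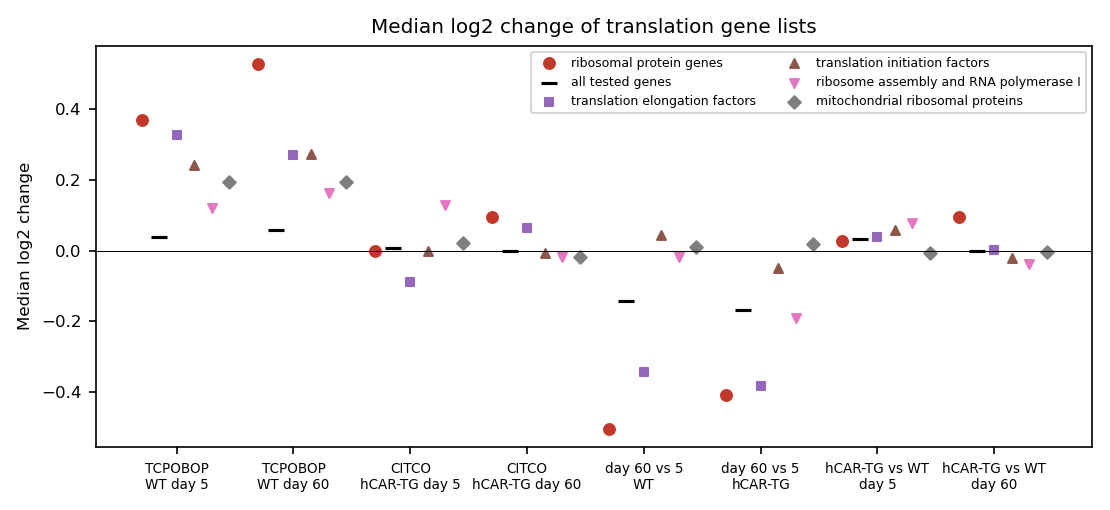
Median log2 change of (FPKM + 1) of the 81 tested members (red circles), of all tested genes (black bars) and of 4 other translation lists, in 8 comparisons; no errors are drawn. The members have the largest median with TCPOBOP at both ages (0.37 and 0.53) and the lowest with age (-0.50 and -0.41).

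Length sets these transcripts apart as well, since most are short. For other genes with a longest transcript of at most 1500 bases and a mean of at least 50 FPKM (309 genes, chosen after the values were seen), the median log2 change with TCPOBOP was 0.22 at day 5 and 0.06 at day 60. With age it was 0.15 in wild type and 0.20 in hCAR-TG mice, opposite in sign to the members. With a mean of at least 1 FPKM instead (1364 genes), the medians were 0.16 and 0.09 with TCPOBOP, and -0.12 and -0.09 with age, of the same sign as the members.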

How the data were processed

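Per the labels' protocols, RNA Bee was used on frozen liver and a stranded TruSeq kit made the poly(A) libraries. The authors deposited a table of FPKM per gene and its interval bounds for each library, per the file headers. Per the submitters' processing notes the build was mm10. The aligner and quantification tool are not given in the sources used here. Read totals were not used here, so depth is unknown, and FPKM totals were 451546 to 502499 per library. Each table has 24885 entries. Entries of one symbol were summed, except 27 entries with date-like symbols, which were kept apart by locus. Genes with a failed estimate (5) were left out, giving 24339.

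The 12282 genes that reached 1 FPKM in 3 or more libraries were tested on log2(FPKM + 1) with limma 3.58.1 in R 4.3.3 (lmFit, eBayes with trend and robust) in one model of the 8 groups. Tests were two-sided. Values of p were adjusted by Benjamini and Hochberg's method over the 12282 genes, and those under 0.05 count as called. The pseudocount of 1 understates changes of low genes. The fit was tested on simulated data. The members, gene lists, tests and naming rule were chosen with earlier results of these data known.

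Named by rule were, per comparison of 2 groups, the 5 largest rises and falls among called members with non-overlapping groups, and per difference the 3 largest each way. Also named were fixed members with known roles, all paralogs, the 5 highest and lowest levels, the 10 most alike other genes and up to 4 called genes per list. Others (members not called, and members called without the outlying library) were named after their values were seen. Some genes that the rule picks are not reported here. Alternatives were rescaling by median of ratios, another pseudocount, other filters, a replicate block, array weights, a constant prior, fits of only the libraries compared, the file number as a factor, a log2 change of at least 0.5, and leaving out libraries. Coordinates are those of RefSeq on GRCm38.p6, the same assembly as mm10.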

Additional observations from a re-analysis of the deposited data

Results flagged for a closer look

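Values in this section are log2 differences between the responses of 2 ages or 2 receptor and ligand pairs that passed limma's test of the difference itself. Between ages (day 60 minus day 5), the TCPOBOP response was larger for Rpl22l1 (0.48), Rpl12 (0.39) and Rpl29 (0.38). They are from 10 of 81 members called higher, near the 13.7% of all tested genes, and Rpl12 was not called after rescaling. The CITCO response was lower at day 60 for Rpl30 (-0.90) and higher for Rpl35a (0.42) and Rpl7 (0.30). In that difference 3 members were called higher and 1 lower, against 5.37% and 4.62% of all tested genes.

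Between pairs (CITCO in hCAR-TG minus TCPOBOP in wild type mice), the response was lower at day 5 for the 3 stalk genes Rplp0 (-0.67), Rplp1 (-0.66) and Rplp2 (-0.59). At day 60 it was lower for Rpl30 (-1.35), Rpl22l1 (-0.79) and Rpl36a (-0.75). The CITCO age differences and the day 5 pair differences include the outlying newborn hCAR-TG control library.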

How the results depend on the processing

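Over the 13 counts of called members, 105 of 151 values under other settings kept their direction and stayed within 1.5 times the count reported, 42 moved beyond that and 4 turned direction. The turns were the newborn CITCO count with the file number as a factor (41, of which 40 lower), the CITCO age difference with array weights (12, of which 9 lower), and at a log2 change of at least 0.5 the adult CITCO count (1 lower) and the CITCO age difference (1 lower). The cause was not tested. For most of these settings the share of all tested genes called is not given here. Counts there do not show whether a move was particular to the members.

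Rescaling gave 1 (newborn CITCO), 39 (hCAR-TG age), 2 (newborn genotype), 38 (adult pair difference) and 2 (difference of age between genotypes). With the outlying newborn hCAR-TG library also left out, an alternative chosen after seeing the data, it gave 4 (newborn CITCO), 31 (hCAR-TG age, 11 higher and 20 lower), 12 (newborn genotype), 2 (CITCO age difference) and 17 (difference of age between genotypes). Without a filter 2 members were called for adult CITCO, 2 for the CITCO age difference and 1 for the difference of age between genotypes, which a filter at 5 FPKM also left at 1. The compared libraries alone gave 0 for newborn CITCO, 0 for newborn genotype, 0 for the CITCO age difference and 30 for the newborn pair difference. Array weights gave 30 (newborn CITCO), 10 (adult CITCO), 20 and 22 (genotype at day 5 and 60), 36 (TCPOBOP age difference) and 36 (difference of age between genotypes). The file number as a factor gave 0 for adult CITCO and 38 for the CITCO age difference, and could not be fitted for 6 comparisons. Those were newborn TCPOBOP, hCAR-TG age, newborn genotype, the TCPOBOP age difference, the newborn pair difference and the difference of age between genotypes.

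The call at a log2 change of at least 0.5 gave 13 and 47 (TCPOBOP at day 5 and 60), 0 (newborn CITCO), 43 and 30 (age in wild type and hCAR-TG), 0 (newborn genotype), 0 (TCPOBOP age difference), and 15 and 24 (pair difference at day 5 and 60), by its construction no more than without it. Leaving out the 3 newborn libraries with over 100 FPKM of pancreas transcripts, chosen after seeing the data, gave 0 (newborn genotype), 5 (TCPOBOP age difference), 35 (newborn pair difference) and 1 (difference of age between genotypes).

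Leaving out each replicate in turn gave 65 to 73 (newborn TCPOBOP), 71 to 76 (adult TCPOBOP), 73 to 75 and 66 to 72 (age in wild type and hCAR-TG), 1 to 6 (newborn CITCO), 0 to 5 (adult CITCO), 0 to 3 (genotype at day 5, and likewise 0 to 3 at day 60), 6 to 11 (TCPOBOP age difference), 1 to 6 (CITCO age difference), 40 to 62 and 51 to 64 (pair difference at day 5 and 60), and 0 to 6 (difference of age between genotypes).

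The replicate numbers did not pair samples: over 84 pairs of libraries with the same number the correlation of their deviations had a median of -0.00815, and 19 were over 0.1. With a replicate block the counts were 73 and 74 for TCPOBOP, 1 and 2 for CITCO and 2 for the CITCO age difference.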
